A study of Mus musculus with 20 samples.

Results

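Traf1, Traf2, Birc2, Birc3, Cflar and Tank encode signalling proteins that work at or just below the receptors for tumour necrosis factor (TNF), interleukin 1 beta (IL-1b) and bacterial lipopolysaccharide (LPS). They were taken as the rows of the count table whose Ensembl identifiers belong to these symbols, 6 of 45706 genes in the table. All 6 passed the filter of at least 1 CPM (a count scaled to a library of 1000000) in at least 2 libraries, which left 14023 genes to test.

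Messenger RNA was sequenced from cultures of primary fibroblasts (MEFs), the matrix-forming cells of connective tissue, taken from C57BL/6 mouse embryos. Every culture is labelled crel-/-, without the NF-kB subunit c-Rel, and this is the control genotype. The other genotype is crel-/-RelA-TA-KI, below simply the knock-in, in which RelA, a further NF-kB subunit, is altered too. What TA stands for is not said in the labels, nor whether each genotype comes from 1 embryo or several. Cells were starved overnight in 0.5% serum and then left unstimulated (0 h) or given LPS at 100 ng/ml, IL-1b at 10 ng/ml or TNF at 10 ng/ml for 0.5, 1 or 3 h. The 20 libraries are 1 per genotype, agent and time. No label speaks of separate cultures, so the 10 pairs of libraries matched for agent and time serve as the replicates of the genotype difference, and every p-value rests on the spread among these libraries alone, which may be technical.

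The NF-kB transcription factors are held inactive in resting cells and set free by inflammatory signals. When TNF binds its receptor, the adaptor TRAF2 brings the ubiquitin ligases cIAP1 (Birc2) and cIAP2 (Birc3) to the receptor complex, where the ubiquitin chains they build recruit the kinases that activate NF-kB. The same complex can turn to cell death, which c-FLIP (Cflar) holds back by blocking caspase activation. TRAF1 is a TRAF protein without a ubiquitin ligase domain that pairs with TRAF2, and TANK is a TRAF-binding scaffold that also binds the kinase TBK1. Several of these genes are known NF-kB targets, so the pathway feeds on its own output and protects the cell that receives the signal.

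In mm10 coordinates, Traf1 (ENSMUSG00000026875.12) lies on the minus strand of chromosome 2 from 34941750 to 34961772. Traf2 (ENSMUSG00000026942.11) lies on the minus strand of the same chromosome from 25517982 to 25546940, and Tank (ENSMUSG00000064289.13) on the plus strand from 61578585 to 61654171. Cflar (ENSMUSG00000026031.13) spans chromosome 1 from 58711508 to 58758884 on the plus strand. The cIAP genes are neighbours on the minus strand of chromosome 9, Birc2 (ENSMUSG00000057367.10) from 7818227 to 7837064 and Birc3 (ENSMUSG00000032000.15) from 7848699 to 7873186, with 11634 bases and 0 annotated genes between them. Of the 50-base stretches of their transcripts, 65 of 9593 (0.68%) are common to both, so few single-end reads of that length could be credited to the wrong cIAP gene. Reads that also match other genes elsewhere could come from 7.56% of the stretches of Birc3, 7.36% of those of Cflar, 1.79% for Traf2, 1.49% for Birc2, 0.13% for Traf1 and 0.00% for Tank. Traf2 overlaps the pseudogene Gm13433 on the opposite strand over 240 bases, and how strand was set in the counting is not stated here.

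Promoter sequence bears on a set of genes that move together, and 4 windows are shown. They are 2 of Tank, the 1 gene with a match to the NF-kB consensus, and 1 each of Birc3 and Traf1, which have none. Each window runs from 250 bases before to 50 bases after an annotated start site in RefSeq (GRCm38.p6), 5′ to 3′ on the gene's own strand. All 6 genes had at least 1 window, 10 in all. Capitals mark a match to the NF-kB consensus, searched on both strands.
Tank, window 1, chr2:61592847-61593146, plus strand: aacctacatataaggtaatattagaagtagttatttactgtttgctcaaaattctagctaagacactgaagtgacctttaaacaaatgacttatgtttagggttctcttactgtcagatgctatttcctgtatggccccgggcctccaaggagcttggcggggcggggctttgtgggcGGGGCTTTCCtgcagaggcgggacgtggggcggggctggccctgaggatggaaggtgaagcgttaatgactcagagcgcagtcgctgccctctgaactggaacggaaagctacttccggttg
Tank, window 2, chr2:61578307-61578606, plus strand: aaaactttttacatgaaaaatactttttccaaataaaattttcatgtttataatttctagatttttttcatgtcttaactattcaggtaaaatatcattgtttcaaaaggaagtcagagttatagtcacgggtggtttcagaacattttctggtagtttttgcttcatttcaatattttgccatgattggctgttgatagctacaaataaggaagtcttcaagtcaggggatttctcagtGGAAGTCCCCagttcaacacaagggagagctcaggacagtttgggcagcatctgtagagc
Birc3, chr9:7873121-7873420, minus strand: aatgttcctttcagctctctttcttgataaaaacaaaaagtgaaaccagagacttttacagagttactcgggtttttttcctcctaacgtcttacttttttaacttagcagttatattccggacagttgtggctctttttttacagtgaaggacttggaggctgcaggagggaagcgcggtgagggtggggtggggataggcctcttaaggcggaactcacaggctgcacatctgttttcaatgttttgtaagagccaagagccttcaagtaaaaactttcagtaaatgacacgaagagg
Traf1, chr2:34961723-34962022, minus strand: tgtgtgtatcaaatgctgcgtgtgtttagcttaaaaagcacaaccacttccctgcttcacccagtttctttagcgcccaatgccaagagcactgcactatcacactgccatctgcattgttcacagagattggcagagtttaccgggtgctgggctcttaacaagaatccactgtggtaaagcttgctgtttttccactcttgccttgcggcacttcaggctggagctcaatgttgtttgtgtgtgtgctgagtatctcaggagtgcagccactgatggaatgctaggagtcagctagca

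The NF-kB consensus was found in the windows of 1 gene, Tank, at -72 from the start site in window 1 and, on the opposite strand, at -10 in window 2. Windows 3 and 4 of Tank, not shown, overlap windows 2 and 1 and hold the same stretches, at -39 and -127 from their own start sites. Tank has 4 windows, some overlapping, against 1 or 2 for each of the other genes, so it had more chances of a match. Windows 1 and 4 of Tank also hold TGACTCA, a form of the AP-1 motif TGANTCA, at -6 and -61. The Cflar window holds the interferon response motif GAAANNGAA at 7 on the opposite strand, and the windows of Traf1, Traf2, Birc2 and Birc3 hold none of the 3 motifs. Among all 32851 windows of this length, 8.5% hold the NF-kB consensus, 7.8% the AP-1 motif and 8.6% the interferon motif. These shares count windows and not genes. A match is a description of letters and not of a bound site, and these windows leave out any distal element.

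The libraries held 9248151 to 12574135 counts each. The LPS 3 h libraries stand apart, with scaling factors of 0.722 and 0.732 against 0.979 to 1.12 in the others, so the responses at 3 h are also given without that pair. Scaling by library totals alone would move the median of all genes in the response at 3 h by -0.31 on the log2 scale, and the share of calls that are higher from 50.9% to 17.7%. Fibroblast markers, 10 genes, summed to 53600 to 82400 CPM and macrophage markers, 15 genes with none at 0, to 2800 to 5770 CPM, so RNA of macrophage marker genes was also present. In bulk RNA, fewer cells of a type and less RNA per cell cannot be told apart. Rel and Rela carry reads in every library, at 16.2 to 62.1 and 72.8 to 355 CPM, and counts over a whole gene do not check either allele. The limit that a count of 0 allows, 3 counts, corresponds to 0.222 to 0.435 CPM, the highest being the crel-/- LPS 3 h library.

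Traf1, the TRAF adaptor without ligase activity, had the widest range of the 6 genes. It was close to silent at 0 h, at 0.807 CPM (10 counts) in crel-/- and 0.594 CPM (7 counts) in knock-in cells. In crel-/- cells it stood at 3.08, 23.6 and 123 CPM after 0.5, 1 and 3 h of LPS, at 2.07, 7.62 and 32.7 CPM after TNF, and at 1.29, 3.38 and 2.86 CPM after IL-1b. The knock-in values in the same order were 1.64, 4.93 and 42.6 CPM under LPS, 0.590, 2.79 and 21.9 CPM under TNF, and 0.357, 0.979 and 1.20 CPM under IL-1b. From 0.5 to 3 h of LPS and TNF Traf1 thus stood higher at each later time in both genotypes, while under IL-1b it went no higher than 3.38 CPM. The fold over 0 h at 3 h of LPS was 153 in crel-/- and 71.6 in knock-in cells, and the low starting counts make these folds imprecise.

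Traf2, the adaptor that carries the cIAPs to the receptor, moved within a narrow band. Its level was 21.1 CPM in crel-/- and 22.9 CPM in knock-in cells at 0 h, and all 6 libraries at 0.5 h lay below their own 0 h library, at 15.7 to 19.1 CPM. At 3 h it reached 42.3, 55.4 and 42.2 CPM under IL-1b, LPS and TNF in crel-/- cells. The knock-in cells held 28.6, 33.2 and 24.6 CPM at that time. Relative to 0 h this was 1.99 to 2.62 times in crel-/- and 1.07 to 1.45 times in knock-in cells.

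Birc2 and Birc3 encode the ligases that TRAF2 brings to the receptor. Birc2 stood at 25.6 CPM in crel-/- and 28.2 CPM in knock-in cells at 0 h. In crel-/- cells it was at 72.1, 36.2 and 48.4 CPM at 1 h and at 78.6, 179 and 62.4 CPM at 3 h of IL-1b, LPS and TNF. In the knock-in the 1 h values were 24.3, 29.1 and 20.2 CPM and the 3 h values 31.7, 84.5 and 22.0 CPM. Outside LPS at 3 h, then, Birc2 in knock-in cells never left the range of 20.2 to 31.7 CPM, and under TNF at 1 and 3 h it lay below its own 0 h level.

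Birc3 stood at 14.3 CPM in both genotypes at 0 h and was already above that level in 6 of 6 libraries at 0.5 h. In crel-/- cells it measured 37.3, 27.8 and 34.0 CPM at 0.5 h of IL-1b, LPS and TNF, 92.2, 57.2 and 106 CPM at 1 h, and 74.3, 278 and 136 CPM at 3 h. The knock-in libraries held 19.1, 19.1 and 21.7 CPM at 0.5 h, 27.1, 17.6 and 28.4 CPM at 1 h, and 30.6, 83.9 and 53.2 CPM at 3 h. At 3 h the knock-in under LPS exceeded crel-/- cells under IL-1b. Birc3 under IL-1b peaked at 1 h in crel-/- cells, while LPS and TNF carried it on upward to 3 h.

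Cflar, whose product c-FLIP blocks caspase activation, started alike in both genotypes, at 83.9 and 85.0 CPM. At 3 h it stood at 115, 524 and 159 CPM in crel-/- and at 91.8, 404 and 149 CPM in knock-in cells under IL-1b, LPS and TNF. LPS at 3 h was thus 6.24 times the 0 h level in crel-/- and 4.75 times in knock-in cells, and IL-1b 1.37 and 1.08 times.

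Tank, the scaffold gene, measured 35.9 and 35.2 CPM at 0 h and 36.3 to 46.5 CPM at 0.5 h, where the knock-in was the higher genotype under all 3 agents. By 3 h the order had turned, with 63.4, 129 and 90.3 CPM in crel-/- against 43.2, 91.5 and 70.6 CPM in knock-in cells. Under IL-1b in the knock-in it stayed between 43.2 and 46.5 CPM from 0.5 h on.

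**Figure D1:**
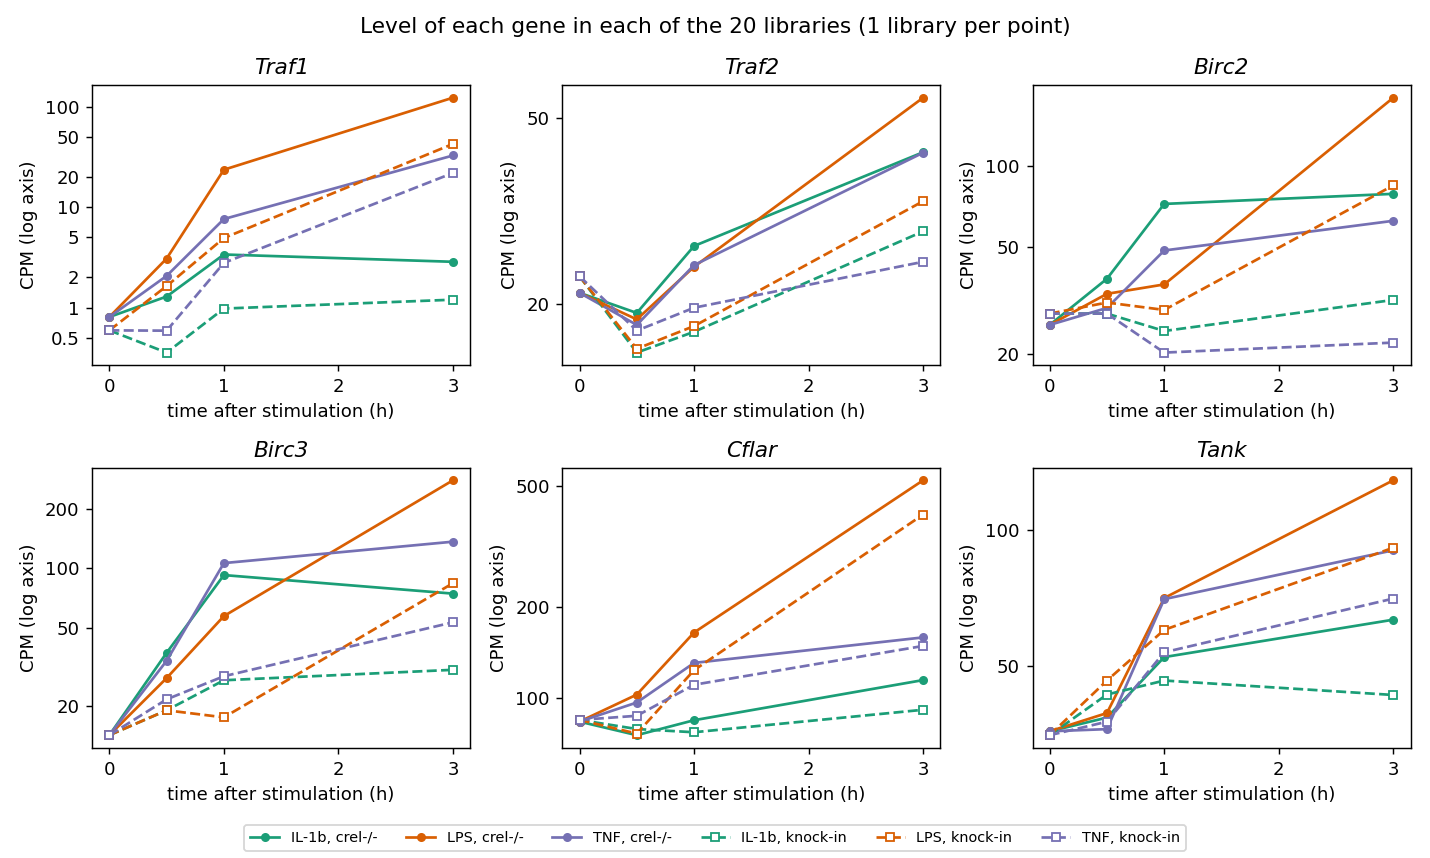
Level of each gene in CPM (log axis) against hours after stimulation, 1 point per library, with colours for the 3 agents, filled points and solid lines for crel-/- and open points and dashed lines for knock-in cells. LPS at 3 h gave the highest level of all 6 genes in both genotypes, and Traf1 ranged from 0.357 to 123 CPM.

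Levels of different genes were compared per gene length as given in the count table, such as 12669 bases for Cflar and 8819 for Traf1. This length need not be that of the transcripts present, so the order is approximate. At 0 h in crel-/- cells the order in CPM per kilobase was Traf1 at 0.0915, Birc3 at 2.85, Traf2 at 4.14, Birc2 at 5.59, Tank at 5.89 and Cflar at 6.62. In knock-in cells Tank (5.78) and Birc2 (6.16) changed places, and with 1 library per genotype these neighbours are not told apart. At 3 h of LPS in crel-/- cells the order was Traf2 at 10.9, Traf1 at 14.0, Tank at 21.1, Birc2 at 39.1, Cflar at 41.3 and Birc3 at 55.5 CPM per kilobase. Birc3 went from the fifth place to the first. In the knock-in it took the third place at 3 h of LPS, at 16.7 CPM per kilobase, behind Cflar at 31.9 and Birc2 at 18.4.

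The response was tested as the mean of the 3 agents against 0 h over both genotypes, with edgeR's quasi-likelihood test and Benjamini-Hochberg adjustment at a threshold of 0.05. At 0.5 h, 0 of 6 genes were called higher, where 2.90% of all tested genes were. At 1 h 4 of 6 were called, against 7.12% of all genes. On the log2 scale Traf1 rose by 2.89 (SE 0.43, adjusted p = 0.0011), Birc3 by 1.65 (SE 0.38, adjusted p = 0.018), Tank by 0.71 (SE 0.15, adjusted p = 0.0074) and Cflar by 0.40 (SE 0.09, adjusted p = 0.012). All 4 calls at 1 h depended on the crel-/- 0 h library. Without it, with the knock-in 0 h library as the only baseline, the values were 2.28 for Traf1, 1.00 for Birc3, 0.63 for Tank and 0.28 for Cflar. Why they fell was not tested.

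At 3 h all 6 genes rose, against 25.5% of all tested genes that were called higher and 24.5% called lower. The median change was 1.19 over the 6 genes and 0.00 over all tested genes. Traf1 rose by 4.58 (SE 0.40, adjusted p = 4.99e-06), which is 23.9-fold, and Birc3 by 2.56 (SE 0.39, adjusted p = 4.44e-04), which is 5.89-fold, each above 0 h in 6 of 6 libraries. The other 4 rose by 1.20 for Cflar (SE 0.10), 1.18 for Birc2 (SE 0.38), 1.12 for Tank (SE 0.15) and 0.72 for Traf2 (SE 0.15), with adjusted p up to 0.025 for Birc2. Birc2 was above 0 h in 5 of 6 libraries and was the least firm call. Its change fell to 0.69 (adjusted p = 0.21) without the LPS 3 h pair, 0.71 (adjusted p = 0.28) without the crel-/- 0 h library and 0.51 (adjusted p = 0.51) when only the TNF and 0 h libraries were fitted. Traf2 also lost its call without the crel-/- 0 h library (0.44, adjusted p = 0.082). Without the LPS 3 h pair the other 5 genes kept their calls at lower values, 3.44 for Traf1, 2.13 for Birc3, 0.86 for Tank, 0.60 for Traf2 and 0.56 for Cflar.

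Markers of other cell types were read in the same response at 3 h, where 25.5% of all tested genes were called higher and 24.5% lower. Of 15 macrophage markers 2 rose and 4 fell, and the share that fell is close to that over all genes. Under LPS at 3 h 3 rose and 8 fell, where 4099 of 14023 genes were called higher and 3962 lower. Of 6 tested neural and Schwann markers 0 rose and 3 fell, with a median of -0.95. Their part in the response of the 6 genes was not tested.

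Each agent was then set against 0 h on its own, with 2 libraries on each side. The 9 comparisons share the same 0 h libraries. LPS at 3 h raised all 6 genes, where 29.2% of all genes were called higher, from 0.96 for Traf2 (SE 0.18) to 6.82 for Traf1 (SE 0.39). Scaled by library totals alone, Traf2 under LPS stood at 0.36 (adjusted p = 0.084) and was not called. TNF at 3 h raised 5 of 6, against 18.7% of all genes. Birc2 was the exception, at 0.49 (SE 0.44, adjusted p = 0.42). Traf2, at 0.56, lost its call under TNF without the crel-/- 0 h library (0.28, adjusted p = 0.36), without the crel-/- TNF 3 h library (0.31, adjusted p = 0.30) and with scaling by library totals (0.42, adjusted p = 0.082). IL-1b at 3 h raised 3 of 6, against 16.9% of all genes. These were Birc3 (1.71, SE 0.43), Traf2 (0.65, SE 0.18) and Tank (0.57, SE 0.17), each lost without the crel-/- 0 h or the crel-/- IL-1b 3 h library.

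The earlier times gave fewer calls. At 1 h TNF raised 4 genes (Traf1, Birc3, Cflar and Tank, with 2.25% of all genes called higher), LPS 3 (Traf1, Cflar and Tank, with 7.58%) and IL-1b 1 (Birc3, with 8.38%). Birc3 was at 1.97 (SE 0.43) under TNF, 1.82 (SE 0.43) under IL-1b and 1.17 (SE 0.44, adjusted p = 0.11) under LPS. Traf1 was at 4.22 (SE 0.43) under LPS, 2.86 (SE 0.49) under TNF and 1.60 (SE 0.56, adjusted p = 0.070) under IL-1b. At 0.5 h no gene of the 6 was called under IL-1b, LPS or TNF, with 5.75%, 3.56% and 0.314% of all genes called higher. The calls under TNF at 1 h were all lost without the crel-/- 0 h or the crel-/- TNF 1 h library, and Birc3 under TNF held under 21 of 27 alternatives. Birc3 under IL-1b at 1 h lost its call without the crel-/- 0 h or the crel-/- IL-1b 1 h library. Tank under LPS at 1 h lost its call without the crel-/- 0 h (0.79) or the crel-/- LPS 1 h library (0.85). Traf1 and Cflar under LPS at 1 h kept theirs under all 27 alternatives. Of the 6 genes, Traf1 had the largest value at 0.5 h, 1.75 under LPS (SE 0.56, adjusted p = 0.088).

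Pairs of agents were set against each other at 3 h, with 2 libraries on either side. LPS gave more RNA than IL-1b for 5 of 6 genes, against 23.8% of all tested genes. Traf1 was higher under LPS by 5.30 (SE 0.33, adjusted p = 7.26e-08), Cflar by 2.16 (SE 0.11, adjusted p = 8.51e-09), Birc3 by 1.70 (SE 0.39), Birc2 by 1.28 (SE 0.42) and Tank by 1.05 (SE 0.17). Birc2 lost this call without the crel-/- LPS 3 h (1.10, adjusted p = 0.15), knock-in IL-1b 3 h (1.02, adjusted p = 0.16) or knock-in LPS 3 h library (1.45, adjusted p = 0.051) and with scaling by library totals (0.84, adjusted p = 0.099). Traf2 did not pass, at 0.31 (SE 0.18, adjusted p = 0.17), and its sign turned to -0.13 when libraries were scaled by totals alone.

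LPS also exceeded TNF for 4 of 6 genes, against 24.3% of all tested genes, with Birc2 at 1.67 (SE 0.43), Cflar at 1.58 (SE 0.11), Traf1 at 1.43 (SE 0.25) and Tank at 0.45 (SE 0.17, adjusted p = 0.043). For Tank the difference vanished with scaling by library totals (-0.01), which also turned the value of Traf2 from 0.40 to -0.06. Birc2 lost this call without the crel-/- LPS 3 h library (adjusted p = 0.055) and without the knock-in TNF 3 h library (adjusted p = 0.069). IL-1b lay below TNF for 3 of 6 genes, against 7.93% of all genes. Traf1 was lower by -3.87 (SE 0.34, adjusted p = 2.41e-05), Tank by -0.60 (SE 0.17) and Cflar by -0.58 (SE 0.11), and Tank lost the call without any 1 of 3 of the 4 libraries involved. The macrophage markers differed between the same libraries. They summed to 5770 and 5470 CPM under TNF, 4330 and 2980 under LPS and 3800 and 3140 under IL-1b, with 10 of 15 lower under LPS than TNF and 11 of 15 lower under IL-1b than TNF. Their part in the agent differences was not tested.

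The genotype difference, knock-in minus crel-/-, was tested over all 10 pairs. It was lower in 5 of 6 genes, against 7.81% of all tested genes. Traf1 was lower in 10 of 10 pairs, by -1.36 (SE 0.17, adjusted p = 1.16e-04, 2.57-fold), and Birc3 in the 9 stimulated pairs, with 0.00 at 0 h, by -1.24 (SE 0.18, adjusted p = 0.0013, 2.36-fold). Birc2 was lower in 9 pairs, by -0.77 (SE 0.20, adjusted p = 0.025), Traf2 in 9, by -0.39 (SE 0.08, adjusted p = 0.0062), and Cflar in 8, by -0.21 (SE 0.05, adjusted p = 0.011). Tank was lower in 7 pairs and did not pass (-0.18, SE 0.08, adjusted p = 0.13). Nfkbia, which encodes the NF-kB inhibitor IkB-alpha and serves as a reference RelA target, was lower by -2.65 (SE 0.35). Birc2 lost its call when any 1 of 10 libraries was left out, those of IL-1b and TNF at 1 and 3 h and of LPS at 3 h in both genotypes, with adjusted p up to 0.062. Leaving out either library of a pair takes that pair out of this test, so these fits come in pairs. Without both LPS 3 h libraries the call was lost too (-0.73, adjusted p = 0.061). When the pairing by condition was not used, 0 of the 6 were called.

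The size of the difference varied with the condition. For Traf1 the pairs ran from -0.35 at 0 h to -2.22 at 1 h of LPS, where crel-/- cells held 4.79 times the knock-in level, and back to -0.58 at 3 h of TNF. Birc3 ran from 0.00 at 0 h to -1.90 at 1 h of TNF, and Birc2 from 0.14 at 0 h to -1.56 at 1 h of IL-1b. Traf2 stood at 0.12 at 0 h and had its deepest value, -0.77, at 3 h of TNF. Cflar went no lower than -0.43, at 0.5 h of LPS, and Tank no lower than -0.55, at 3 h of IL-1b. The summed level of the macrophage markers was also lower in the knock-in in 9 of 10 pairs (2840 to 5470 against 2800 to 5770 CPM in all), with 3 of 15 called lower. The summed level of the 7 neural and Schwann markers was lower in 10 of 10 pairs (12.0 to 42.5 against 17.4 to 73.5 CPM), but 5 of the 6 tested had a positive difference (median 0.31). Gfap was lower, by -2.34 (SE 0.28), and Tubb3 higher, by 0.41 (SE 0.10). Their part in the genotype difference was not tested.

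**Figure D2:**
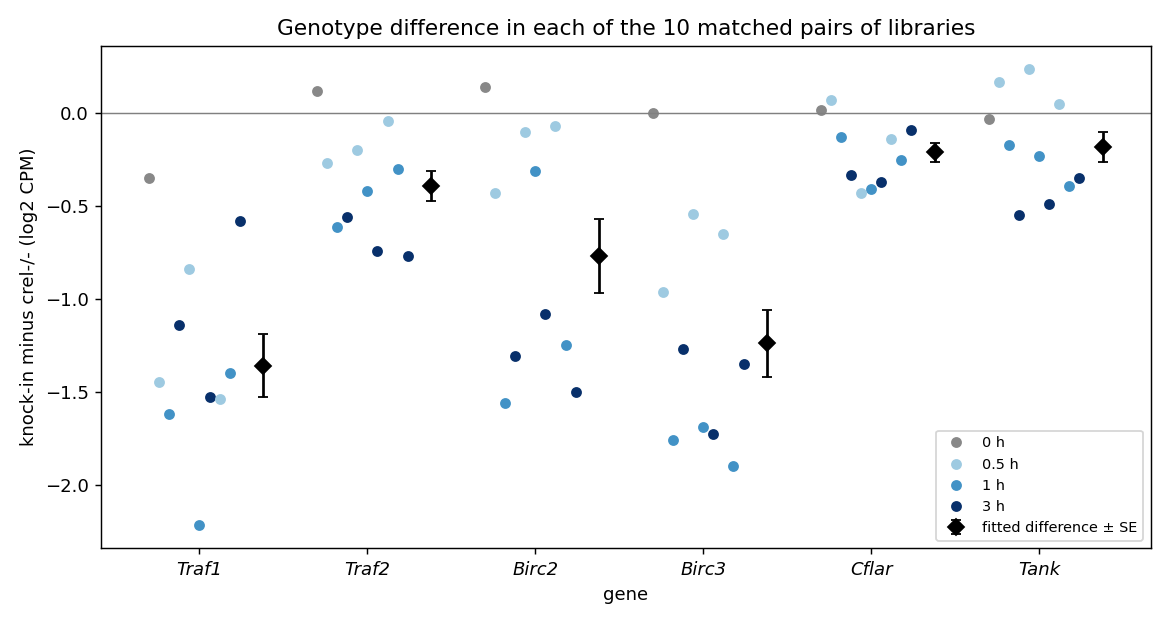
Knock-in minus crel-/- in log2 CPM for each of the 10 matched pairs (points, coloured by hours) and the fitted difference with its SE (black diamonds). Traf1 and Birc3 lie at or below 0 in every pair, and for Birc2 the 0 h and 0.5 h pairs lie between 0.14 and -0.43 while most later pairs lie below -1.

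Separate tests at each time used 3 pairs each. At 0.5 h 1 of 6 genes was lower, against 1.32% of all genes. It was Birc3, at -0.72 (SE 0.11, adjusted p = 0.0035), called no longer without either IL-1b 0.5 h library (-0.60 each, adjusted p = 0.069 and 0.065). Traf1 had a larger value with a wider error, -1.35 (SE 0.39, adjusted p = 0.12), on 4 to 34 counts per library. At 1 h 5 of 6 were lower, against 2.02% of all genes. Birc3 was lower by -1.80 (SE 0.10, adjusted p = 4.14e-06), Traf1 by -1.90 (SE 0.25, adjusted p = 0.0022), Birc2 by -1.07 (SE 0.21), Traf2 by -0.45 (SE 0.09) and Tank by -0.27 (SE 0.07, adjusted p = 0.049). At 1 h the calls of Birc3 and Traf1 held under all 27 alternatives, while those of Traf2, Tank and Birc2 held under 21, 14 and 12. Most of these leave out 1 library, and either library of a pair gives nearly the same test.

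At 3 h 5 of 6 were again lower, where 8.35% of all genes were lower and 8.20% higher. The values were -1.46 for Birc3 (SE 0.09, adjusted p = 2.77e-06), -1.28 for Birc2 (SE 0.20, adjusted p = 0.0033), -1.10 for Traf1 (SE 0.19, adjusted p = 0.0025), -0.69 for Traf2 (SE 0.08, adjusted p = 1.49e-04) and -0.46 for Tank (SE 0.06, adjusted p = 5.02e-04). Cflar did not pass (-0.27, SE 0.09, adjusted p = 0.061), and passed under 8 of 27 alternatives. Traf1 lost its call without the LPS 3 h pair (-0.72, adjusted p = 0.052). Leaving out the crel-/- LPS 3 h library alone is nearly the same test (-0.71, adjusted p = 0.062). The median over the 6 genes was -0.19 at 0.5 h, -0.76 at 1 h and -0.90 at 3 h, against 0.00, 0.01 and 0.00 over all tested genes.

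Whether the difference itself changed from 0.5 h to 3 h was tested as an interaction. It became more negative for 3 of 6 genes, against 1.76% of all genes. Birc3 moved by -0.74 (SE 0.14, adjusted p = 0.015), Tank by -0.62 (SE 0.09, adjusted p = 0.0060) and Traf2 by -0.52 (SE 0.12, adjusted p = 0.038). For Tank the 0.5 h value was 0.15 (SE 0.07), so the knock-in went from level or slightly above to below crel-/- cells, and this call held with each of the 20 libraries left out in turn. The call of Traf2 was lost in 16 of the 20 cases and that of Birc3 in 4, those without an LPS or TNF library at 0.5 h. Birc2 had the largest shift, -1.08 (SE 0.29, adjusted p = 0.10), which edgeR did not call. DESeq2 (-1.10, adjusted p = 0.0098) and limma-voom (-1.06, adjusted p = 0.046) called it, as did edgeR without either LPS 1 h library (-1.09 each, adjusted p = 0.0049 and 0.0048). Traf1 (0.25, SE 0.43) and Cflar (-0.09, SE 0.13) did not pass. For the reference Nfkbia the interaction had the opposite sign, 1.70 (SE 0.32, adjusted p = 0.040), from -3.66 at 0.5 h to -1.96 at 3 h.

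Other interactions gave no call among the 6. The difference under stimulation against that at 0 h ran from -1.34 for Birc3 (SE 0.53) to -0.17 for Tank (SE 0.27), with 0 genes called in the whole table (0% by edgeR, with 450 at an unadjusted p under 0.05, 6 by DESeq2 and 0 by limma-voom). A single pair at 0 h limits this test. Between agents the genotype differences of the 6 genes were not told apart. The calls in the whole table were 0.0214% of genes for LPS against TNF, 0.349% for IL-1b against TNF and 0% for LPS against IL-1b (0 by edgeR with 572 at an unadjusted p under 0.05, 23 by DESeq2 and 3 by limma-voom).

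The response of each genotype was taken from the fit of all 20 libraries with genotype split by time. Its baseline was 1 library, and its SE leaves out the spread between agents. Cflar in crel-/- cells at 3 h, for example, stood at 0.46, 2.64 and 0.92 under IL-1b, LPS and TNF. In this fit crel-/- cells gave 1 call at 0.5 h (Birc3, 1.20, SE 0.16), 4 at 1 h and 6 at 3 h. Of all genes, 1.22%, 4.99% and 21.6% were called higher. Knock-in cells gave 0, 2 (Birc3 and Tank) and 4 calls, with 0.492%, 1.61% and 14.2% of all genes. Birc3 rose at 3 h by 3.31 (SE 0.16) in crel-/- and 1.85 (SE 0.16) in knock-in cells, and Traf1 by 4.79 (SE 0.44) and 4.13 (SE 0.50). Without the LPS 3 h pair these were 2.80 and 1.49 for Birc3 and 3.48 and 3.20 for Traf1. The responses of Cflar were 1.34 (SE 0.13), which was 0.68 without the LPS 3 h pair, and 1.06 (SE 0.13). Those of Tank were 1.33 (SE 0.10) and 0.89 (SE 0.10), and 1.06 and 0.64 without that pair. Birc2 rose by 1.90 (SE 0.31) in crel-/- cells and stood at 0.48 (SE 0.30, adjusted p = 0.27) in the knock-in, where without the LPS 3 h pair it was -0.10. Traf2 rose by 1.13 (SE 0.12) in crel-/- cells and stood at 0.32 (SE 0.12, adjusted p = 0.068) in the knock-in. Traf2 and Birc2 thus passed in crel-/- cells and not in the knock-in, and whether their responses differ at 3 h alone was not tested. The calls of Birc3 and Tank in the knock-in at 1 h were both lost without the knock-in IL-1b 1 h or LPS 1 h library. That of Tank held under 24 of 26 alternatives and that of Birc3 under only 14 of 26. Birc3 was also not called with limma-voom (0.72, adjusted p = 0.084). Without the LPS 3 h pair Cflar at 3 h in the knock-in was at 0.45 (adjusted p = 0.050).

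**Figure D3:**
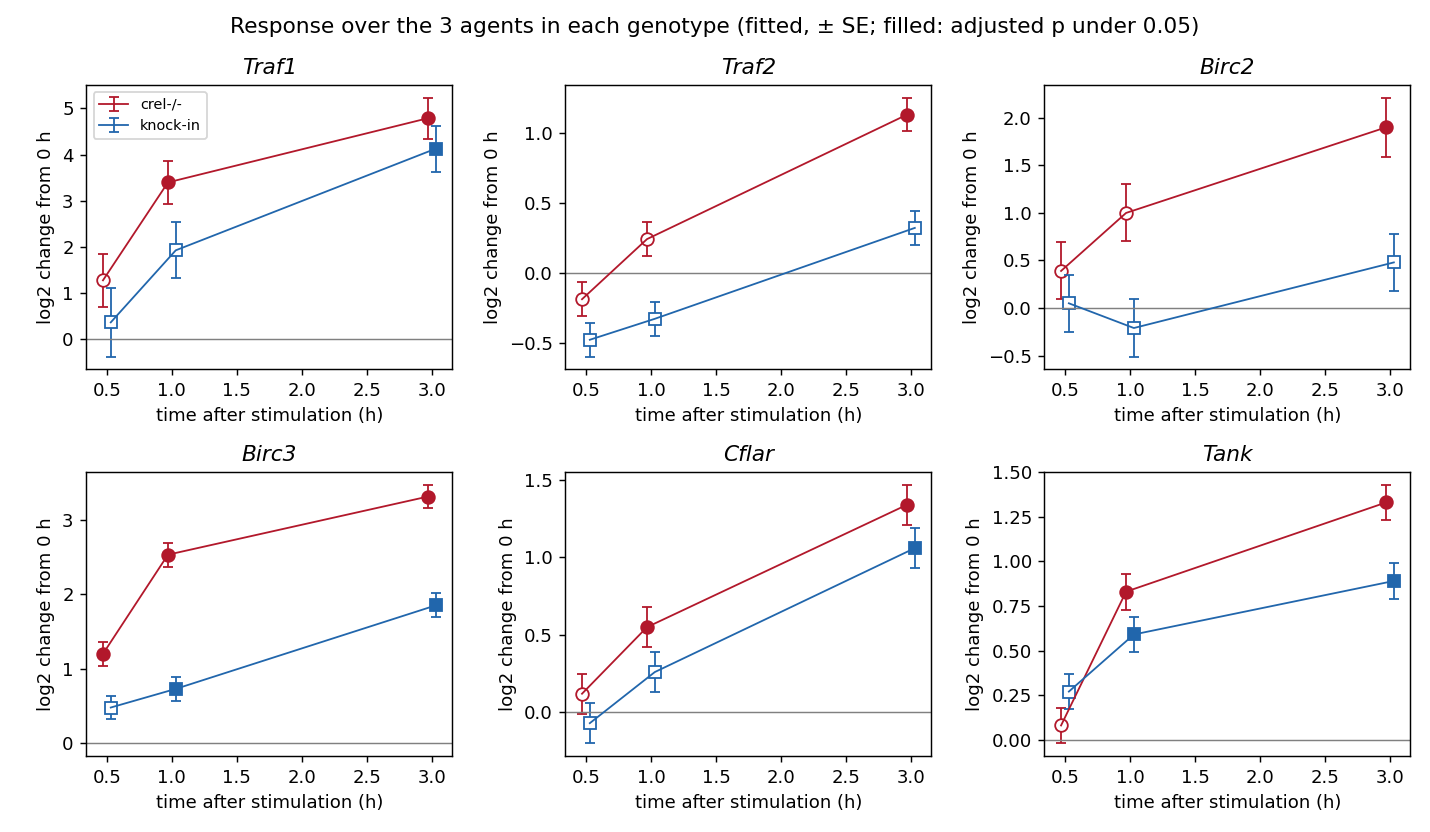
Fitted log2 change from 0 h, mean of the 3 agents, at 0.5, 1 and 3 h in crel-/- (circles) and knock-in cells (squares), with SE bars and filled symbols where the adjusted p is under 0.05. At 3 h all 6 genes are filled for crel-/- cells and 4 for the knock-in, where Traf2 (0.32) and Birc2 (0.48) are unfilled.

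The genes around these 6 were read from 5 lists of the same pathways. Their counts stand against 25.5% of all tested genes higher and 24.5% lower in the response at 3 h, and 8.20% higher and 8.35% lower in the knock-in at 3 h. Among 25 genes of TNF receptor, IL-1 receptor and Toll-like receptor signalling, 10 rose and 2 fell at 3 h, and 5 were lower in the knock-in at 3 h with 0 higher. Myd88, the adaptor of the IL-1 and Toll-like receptors, and the IL-1 receptor gene Il1r1 both rose by 1.65 (SE 0.23 and 0.16). Irak3 (-1.21, SE 0.14) and Irak2 (-1.12, SE 0.29), further genes of that branch, were lower in the knock-in. The median of this list was 0.22 in the response and -0.12 in the genotype difference at 3 h.

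Of 9 other TRAF and IAP family genes, 3 rose and 1 fell at 3 h, with a median of 0.02, and the share higher is close to that over all genes. Birc6, a large IAP with ubiquitin-conjugating activity, rose by 1.03 (SE 0.07) and Traf3, which recruits TRAF2 and the cIAPs to the kinase NIK, by 0.80 (SE 0.26). Traf3 was the 1 gene of this list that was lower in the knock-in at 3 h (-0.91, SE 0.12, adjusted p = 8.18e-04).

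The non-canonical NF-kB and TBK1 list holds the branch that the cIAPs restrain and that TANK touches. Of its 14 genes, 10 rose and 1 fell at 3 h (median 0.92), and 7 were lower and 0 higher in the knock-in (median -0.15). Cd40, a receptor of the TNF family that binds TRAFs, rose by 3.78 (SE 0.50) and was lower in the knock-in by -2.20 (SE 0.20). Relb, the NF-kB subunit of this branch, rose by 2.75 (SE 0.43) and was lower by -1.68 (SE 0.20).

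Linear ubiquitin and deubiquitinase genes act on the chains that the cIAPs start. Of 11, 7 rose and 1 fell at 3 h (median 0.41), and 4 were lower and 1 higher in the knock-in (median -0.17). Tnfaip3, the ubiquitin-editing NF-kB inhibitor A20, rose by 4.07 (SE 1.16) and Rnf31, a subunit of the linear ubiquitin ligase, by 1.45 (SE 0.17). Tnfaip3 (-2.87, SE 0.24) and its partner Tnip1 (-2.09, SE 0.22) were the furthest below crel-/- cells.

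Of 24 survival and apoptosis genes 23 were tested, of which 13 rose and 2 fell at 3 h (median 0.46), while 8 were lower and 2 higher in the knock-in (median -0.21). The stress-response gene Ier3 rose by 3.41 (SE 0.85), and Bcl2a1d, a survival factor of the BCL2 family with near-identical copies that make its counts uncertain, by 2.75 (SE 0.82). Sod2, the mitochondrial superoxide dismutase, was lower in the knock-in by -2.39 (SE 0.11) and Bcl2a1d by -1.81 (SE 0.53).

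**Figure D4:**
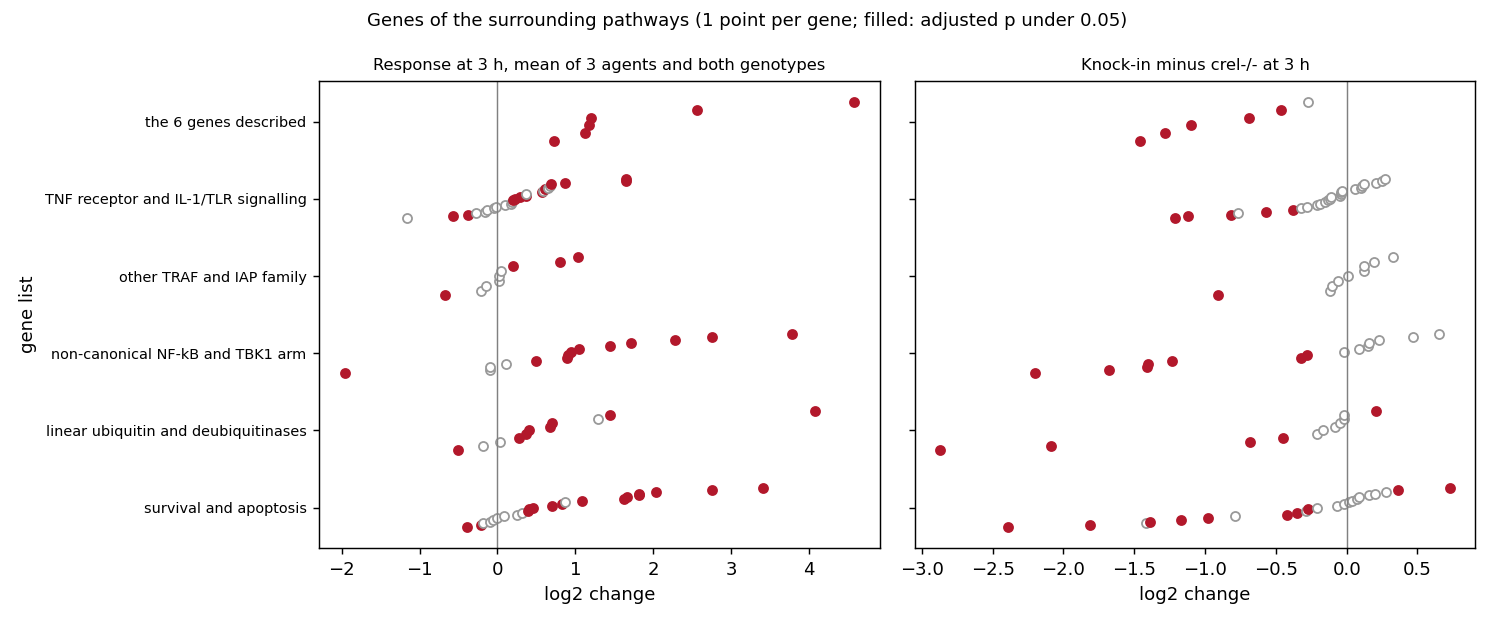
Log2 change of each gene in the response at 3 h (left) and in the genotype difference at 3 h (right), by list, with filled points where the adjusted p is under 0.05. The 6 genes described lie between 0.72 and 4.58 on the left and between -1.46 and -0.27 on the right, and the other TRAF and IAP family genes have medians of 0.02 and 0.01.

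Over the 20 libraries, which share genotype, agent and time, the 6 genes were correlated with each other at Pearson's r of 0.649 (Traf1 with Birc2) to 0.929 (Traf1 with Tank), and the neighbours Birc2 and Birc3 at 0.841. Among 9502 genes with a mean of at least 10 CPM, the closest in pattern to Birc3 were Stx11 (r = 0.966), Vcam1 (0.954) and Tnfaip2 (0.953), and to Birc2 Alpk1 (0.942), Slc7a2 (0.939) and Ccl5 (0.936). Traf1 was closest to Ccl9 (0.938), Tnip3 (0.937) and Ell2 (0.933), and Traf2 to Slc30a7 (0.955), Steap4 (0.950) and Znrf1 (0.945). For Cflar they were Spryd7 (0.961), Etv3 (0.955) and Hnrnph2 (0.953), and for Tank Itga5 (0.953), Ell2 (0.948) and Slc4a7 (0.932). These values describe shared patterns across libraries that are not independent.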

How the data were processed

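Per the labels' protocols, polyA RNA went through a stranded kit and single-end sequencing of 50 bases. Names in the submitters' processing notes are featureCounts 1.5.1, STAR, cutadapt 1.12, DESeq2 and the build mm10. STAR's version, the annotation release and the strand setting were not given in the sources used here. Deposited by the authors were whole-number counts per gene, not normalized, for 20 libraries of 9248151 to 12574135 counts. Symbols matched 45143 of 45706 identifiers.

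Counts were fitted across all 14023 tested genes with edgeR 4.0.16 (glmQLFit robust, TMM scaling, R 4.3.3). Terms were condition and genotype (9 residual degrees of freedom), with genotype split by time (6), agent (6) or stimulation (8). A response that differs between genotypes enters the spread of the condition and genotype model. SE is the log2 change over the square root of F, and the log2 CPM values use a prior count of 2. Alternatives were other scalings, DESeq2 1.42.0, limma-voom (limma 3.58.1), other filters and left-out libraries. For the genotype difference, leaving out either library of a pair removes that pair, so such fits are not separate checks.

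The members and lists were chosen with earlier results of these data known. Beside the 6 genes, the 2 with the largest called change per list and comparison were named, and per gene the 3 with the highest correlation, with Rel, Rela and Nfkbia as references. The endothelial and epithelial markers summed to at most 84.7 and 16.9 CPM.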

Additional observations from a re-analysis of the deposited data

Results flagged for a closer look

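The genotype difference (knock-in minus crel-/-) at 3 h differed from that at 0.5 h for 3 of the 6 genes in an interaction test (edgeR's quasi-likelihood test, Benjamini-Hochberg adjusted), where 1.76% of all tested genes became more negative. The shift was -0.74 on the log2 scale for Birc3 (adjusted p = 0.015), -0.62 for Tank (adjusted p = 0.0060) and -0.52 for Traf2 (adjusted p = 0.038). The call of Traf2 was lost in 16 of 20 fits that left out 1 library and with DESeq2 (-0.53, adjusted p = 0.10), and that of Birc3 in 4 of 20. Tank was higher in the knock-in in all 3 pairs at 0.5 h (0.17, 0.24 and 0.05 for IL-1b, LPS and TNF) and lower in all 3 at 3 h (-0.55, -0.49 and -0.35). For Birc3 the pairs were already below 0 at 0.5 h (-0.96, -0.54 and -0.65) and lay at -1.27, -1.73 and -1.35 at 3 h. For Traf2 they went from -0.27, -0.20 and -0.04 to -0.56, -0.74 and -0.77.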

How the results depend on the processing

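Between 25 and 28 alternatives were applied to each value of the 6 genes, depending on the comparison and the libraries in it. Of the values they gave, 4496 kept direction and side of the threshold, 161 lost a call, 51 gained one and 110 changed sign. The causes were not tested. Without the pairing by condition, the genotype difference called 0 of the 6 genes and 385 genes in all, against 5 and 2215. DESeq2 called 2 of the 6 for IL-1b at 1 h, 1 for LPS at 0.5 h and 2 for the genotype difference at 0.5 h, and without the LPS 3 h pair the last was also 2. Among all genes DESeq2 called 1906, 835 and 313 in these 3 comparisons, and edgeR 2174, 844 and 361. The knock-in response at 1 h called 1 gene with limma-voom and 1 with a filter of 5 CPM. Leaving out 1 library at a time, the number of the 6 called ran from 0 to 4 for the response at 1 h and TNF at 1 h (0 without the crel-/- 0 h library), from 0 to 2 for IL-1b at 1 h, from 0 to 4 for IL-1b at 3 h and from 0 to 1 for LPS at 0.5 h. It ran from 2 to 5 for LPS against TNF, 0 to 2, and 2 to 5, for the genotype difference at 0.5 and 1 h, 0 to 3 for the knock-in response at 1 h and 1 to 3 for the genotype difference at 3 h against 0.5 h. In that last test Traf1 ran from -0.17 to 0.70 and Cflar from -0.22 to 0.02. All genes called in the response at 3 h ran from 4039 (without the crel-/- 0 h library) to 7353. The pairing follows matched agents and times. Depth limits Traf1 most, with 4 to 34 counts at 0.5 h.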
